A study of Caenorhabditis elegans with 2 samples.

Results

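The genes described here encode the factors that start and carry forward protein synthesis in Caenorhabditis elegans, and the question asked of them was whether UNC-98::GFP, a tagged zinc finger protein, was found at their promoters. They were chosen by name, as the protein-coding genes whose symbols begin with eif-, eef-, iff-, ife- or ifg-, together with egl-45, which encodes subunit A of the initiation factor eIF3, and clu-1. The rule gave 41 of the 19973 protein-coding genes of the Ensembl annotation of genome build WBcel235 (ce11), of which 12 encode eIF3 subunits, 22 encode other initiation factors including the eIF5A proteins, 6 encode elongation factors, and 1 is clu-1. A gene was counted as having a region when the summit of a deposited ChIP-seq region lay in its promoter window. The window reached from 1000 bp before to 500 bp past any annotated 5′ end of its protein-coding transcripts.

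The data came from chromatin immunoprecipitation and sequencing of whole starved L1 larvae, collected at an age of 6 hours after synchronization by bleaching, in 2 biological replicates that form a single group. Both replicates were of strain OP85, which carries the transgene wgIs85, an unc-98 fusion to the TY1, EGFP and 3xFLAG tags with a wild-type copy of unc-119, in an unc-119(ed3) background. An anti-GFP antibody was used on chromatin sonicated to 200 to 800 bp, and the regions were called against a control file. No strain without the tag was analysed here, and the animals were used whole, so cell types cannot be told apart. With 1 group there was no comparison between conditions and no test: every count is set beside the same count over all protein-coding genes. Whether any difference between classes of genes exceeds chance was not tested, and the replicates measure only the spread between these 2 libraries.

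In textbook outline, initiation brings a messenger RNA, a ribosome and the initiator tRNA together. The factor eIF2 carries the initiator tRNA and is recharged with GTP by eIF2B, eIF4E binds the cap, eIF4G bridges cap and ribosome, and the many-subunit factor eIF3 organizes the assembly on the small ribosomal subunit. Elongation then needs eEF1A to deliver each aminoacyl-tRNA, the eEF1B complex to recharge eEF1A, and eEF2 to move the ribosome along. The UNC-98 protein, with zinc fingers of the C2H2 kind, is known from the M-lines of nematode body wall muscle and also found in muscle nuclei. Many C. elegans messenger RNAs are trans-spliced, so an annotated 5′ end can lie downstream of the place where transcription began. Distances below are distances to annotated ends only. The promoter windows were placed by the same ends, so a window can miss that place, which limits the counts as well.

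Of the 41 genes, 10 had a region in the conservative list, the deposited list of 728 regions that were reproducible between the replicates. They were the elongation factor genes eef-1A.1, eef-1A.2, eef-1G and eef-2, the eIF3 genes eif-3.B, eif-3.C, eif-3.E, eif-3.I and eif-3.J, and the eIF5A gene iff-2. The 200 bases around the summit are shown for 5 of them: the pair of eEF1A genes and eef-1G, because their regions share words or runs of bases, eif-3.B, because it had the highest signal among these genes, and iff-2, because it was the 1 initiation factor gene outside eIF3. Sequences are from the RefSeq copy of WBcel235 and are written 5′ to 3′ along the strand of the gene. Capitals mark a run of 15 bases that the eef-1A.2 and eef-1G regions have in common, and the 7-base words GTACGCA and GCAACGA or their reverse complements.
eef-1A.1, chrIII:6972001-6972200, minus strand: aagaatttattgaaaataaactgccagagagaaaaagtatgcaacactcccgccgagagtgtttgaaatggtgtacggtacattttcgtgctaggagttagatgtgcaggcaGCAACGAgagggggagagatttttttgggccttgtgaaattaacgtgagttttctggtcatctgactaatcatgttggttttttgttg
eef-1A.2, chrX:7823223-7823422, plus strand: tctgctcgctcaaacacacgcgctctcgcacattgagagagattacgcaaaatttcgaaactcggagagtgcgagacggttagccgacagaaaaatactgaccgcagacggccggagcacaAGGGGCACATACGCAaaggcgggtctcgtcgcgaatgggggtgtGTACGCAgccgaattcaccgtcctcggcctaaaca
eef-1G, chrV:10965656-10965855, plus strand: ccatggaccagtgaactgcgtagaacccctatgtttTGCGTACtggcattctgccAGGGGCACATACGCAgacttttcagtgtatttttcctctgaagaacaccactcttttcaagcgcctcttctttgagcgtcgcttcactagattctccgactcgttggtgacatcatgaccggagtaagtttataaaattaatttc
eif-3.B, chrII:14795056-14795255, plus strand: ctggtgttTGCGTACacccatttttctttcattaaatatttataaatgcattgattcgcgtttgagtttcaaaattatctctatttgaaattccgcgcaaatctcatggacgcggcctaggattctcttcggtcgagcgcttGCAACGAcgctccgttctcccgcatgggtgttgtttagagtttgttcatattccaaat
iff-2, chrII:8561345-8561544, minus strand: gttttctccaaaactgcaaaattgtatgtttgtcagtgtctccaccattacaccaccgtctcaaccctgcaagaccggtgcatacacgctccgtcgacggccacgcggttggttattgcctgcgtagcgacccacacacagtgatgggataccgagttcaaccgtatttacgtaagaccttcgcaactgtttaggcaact

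The 10 genes are 24.4% of the 41, where 632 of all 19973 protein-coding genes, or 3.16%, had a region in the same list. The classes were unequal. Elongation factors had a region at 4 of 6 genes (66.7%) and eIF3 subunits at 5 of 12 (41.7%). The other initiation factors had one at 1 of 22 (4.55%), close to the share over all genes, and clu-1 had none. In the second thresholded list of the series, which holds 790 regions, 8 of the 41 genes remained (19.5%, against 3.38% of all genes), without eif-3.I and eif-3.J. The list called from replicate 1 alone held the same 8 genes, against 2.89% of all genes. The list called from replicate 2 alone, which has fewer regions (394, against 577 for replicate 1), held 3 genes (7.32%, against 1.79% of all genes), namely eef-1G, eif-3.B and eif-3.C. The order of the classes, elongation factors first or level with eIF3 and the other initiation factors last, was the same in each of the 4 thresholded lists, on counts that in replicate 2 were 1, 2 and 0. It turned at a stricter IDR of 0.001 in the conservative list, where 1 of 6 elongation factor genes and 3 of 12 eIF3 genes were left.

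**Figure D1:**
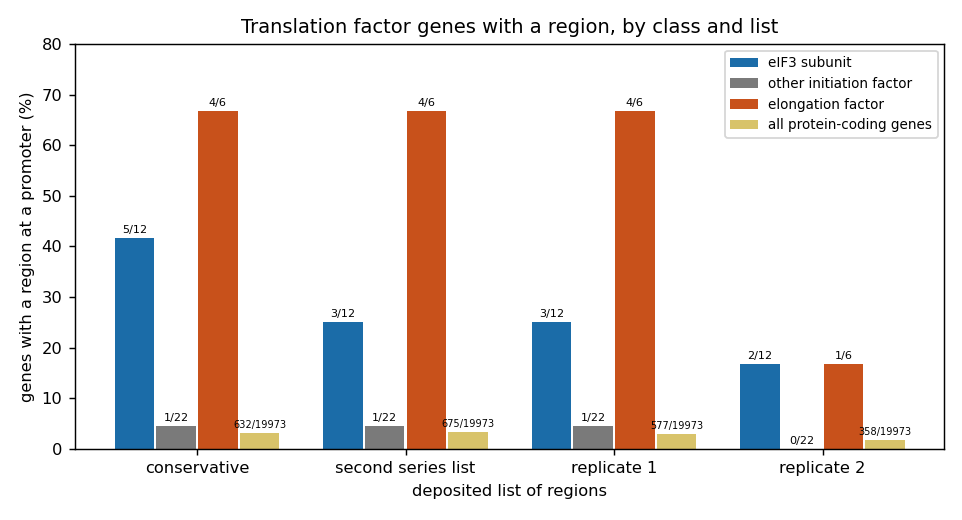
Share of genes (%) with the summit of a region in the promoter window, by deposited list, for eIF3 subunits, other initiation factors, elongation factors and all protein-coding genes; the labels on the bars give genes with a region over genes counted. Elongation factors reach 66.7% in the conservative list and all genes 3.16%, and in replicate 2 the counts fall to 1 elongation factor gene and 2 eIF3 genes.

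The elongation factors are taken first. The values given are the signal, a score that the authors' software assigned to each region at a scale that is not stated, and the rank of that score within its list. The −log10 of the irreproducible discovery rate (IDR) that the authors gave each region is used as well, and the thresholded lists hold regions above 2 on that scale, an IDR of 0.01. Read counts were not used, so the depth behind each score is unknown.

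The genes eef-1A.1 and eef-1A.2 both encode eEF1A, the factor that delivers aminoacyl-tRNA. At eef-1A.1 the region spanned chrIII:6971943-6972258, with its summit 389 bp upstream of the 5′ end. Its signal was 102 in the series, 70.52 in replicate 1 and 42.51 in replicate 2, and it ranked 387 of 728. At eef-1A.2 the region spanned chrX:7823165-7823480, with its summit 331 bp upstream, and ranked 310. Its signal was 118.4 in the series, 79 in replicate 1 and 30.69 in replicate 2. Both copies of the eEF1A gene thus had a region of middling rank well upstream of the gene, and at both the score of replicate 1 was the higher. In replicate 2 the −log10 IDR was 1.63 at eef-1A.1 and 0.413 at eef-1A.2, so neither passed the threshold there.

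The gene eef-1G encodes the gamma subunit of eEF1B, which anchors the exchange factor. Its region, at chrV:10965598-10965913, had a signal of 148.1 and ranked 220. The score was 91.25 in replicate 1 and 59.5 in replicate 2, and both replicates' own lists held the region. This gene has 5 annotated 5′ ends. The series summit lay 17 bp upstream of the nearest one and 37 bp inside the outermost one, in an exon outside the coding sequence, while the replicates' own summits lay 1 bp and 3 bp upstream of the outermost end. The exchange subunits themselves had no region in any thresholded list. The best candidate at eef-1B.1 had a series signal of 57.5, with 30.8 in replicate 1 and 24.28 in replicate 2. At eef-1B.2 the values were 38.25, 22.57 and 25.25. Its summits lay 426 bp downstream of the nearest 5′ end in the series and 353 bp downstream in replicate 2. In replicate 1 the summit lay 907 bp upstream, which is a different place. Of the 3 genes for eEF1B subunits, only eef-1G was therefore in a thresholded list, although the series score of eef-1B.1 was higher than that of 94.9% of all genes.

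The gene eef-2 encodes eEF2, the translocase. The region at chrI:9163350-9163665 had its summit 23 bp upstream of the nearest of 3 annotated 5′ ends. Its signal was 91.85 in the series, 61.46 in replicate 1 and 30.5 in replicate 2, with a rank of 458. The summits of the replicates lay 88 bp apart, the second largest distance among the 10 genes. In replicate 2 the score was above that of 93.7% of all genes, yet the −log10 IDR there was 0.106.

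Among eIF3 genes, eif-3.B stood highest of all 41 genes. It encodes subunit B, a scaffold subunit with an RNA recognition motif. The region, at chrII:14794998-14795313 with its summit 248 bp upstream, had a signal of 228.6 and ranked 93 of 728. The replicates gave nearly equal scores, 113.8 and 103.9, and both replicates' own lists held it. At eif-3.C, which encodes a core subunit that contacts the small ribosomal subunit, the region at chrI:9979725-9980040 lay with its summit 221 bp upstream. Its signal was 141.9 in the series, 75.99 in replicate 1 and 61.68 in replicate 2, and it too was in both replicates' lists. These genes and eef-1G were the only members of the 41 that were in all 4 thresholded lists.

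The other 3 eIF3 genes with a region rested on less. At eif-3.E, which encodes a PCI-domain subunit known in mammals as INT6, the region at chrI:10642331-10642646 had a series signal of 143.1 and a summit 208 bp upstream. Replicate 1 gave 104.3 and replicate 2 gave 45.34, and the −log10 IDR of 4.46 in replicate 1 stood against 0.0345 in replicate 2. At eif-3.I, which encodes the WD-repeat subunit, the region at chrI:2485468-2485783 lay with its summit 235 bp upstream. Its signal was 76.96 in the series, 44.54 in replicate 1 and 32.97 in replicate 2. At eif-3.J, which encodes a loosely attached subunit, the region at chrI:13434527-13434842 lay farthest from its gene, with the summit 804 bp upstream. Its signal was 76.66 in the series, 29.68 in replicate 1 and 42.92 in replicate 2. The last 2 genes were in the conservative list only: their −log10 IDR there was 2.2 and 2.01, near the threshold of 2, and within single replicates it was between 0.151 and 0.638.

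The 7 eIF3 genes without a region were egl-45, eif-3.D, eif-3.F, eif-3.G, eif-3.H, eif-3.K and eif-3.L, for subunits A, D, F, G, H, K and L. Of these, only eif-3.H had a series score above the median of all genes, 27.84. Its score was 30.19, the highest among them, and the lowest was 7.026 at eif-3.K. At eif-3.H replicate 1 gave 3.938 and replicate 2 gave 19.37, from summits 23 bp downstream and 837 bp upstream, which are different places. At eif-3.D the series score was 21.41, at eif-3.F it was 23.48 and at eif-3.G it was 15.23. No candidate summit lay in the window of eif-3.L in the series list. At egl-45, the gene for the largest scaffold subunit, neither replicate had a candidate, and the series list had 1 with a signal of 19.94. In the series scores the 5 eIF3 genes of the conservative list had 76.66 or more and the other 7 had 30.19 or less. The list and these scores come from the same regions, so the gap is given as a description only. In replicate 1 the lowest of the 5 was 29.68, at eif-3.J, and the highest of the 7 was 23.24, at eif-3.D. In replicate 2 these were 32.97, at eif-3.I, and 19.37, at eif-3.H. The conservative list rests on the same 2 replicates, so these gaps are descriptions too. Each value is the best in its window and need not come from the same place in both replicates. At eif-3.D the summits lay 533 bp upstream in replicate 1 and 70 bp downstream in replicate 2. The median series score over all 12 was 26.84, beside 27.84 over all protein-coding genes. In the replicates the direction was the opposite, with medians of 21.8 against 15.59 in replicate 1 and 18.34 against 15.94 in replicate 2.

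**Figure D2:**
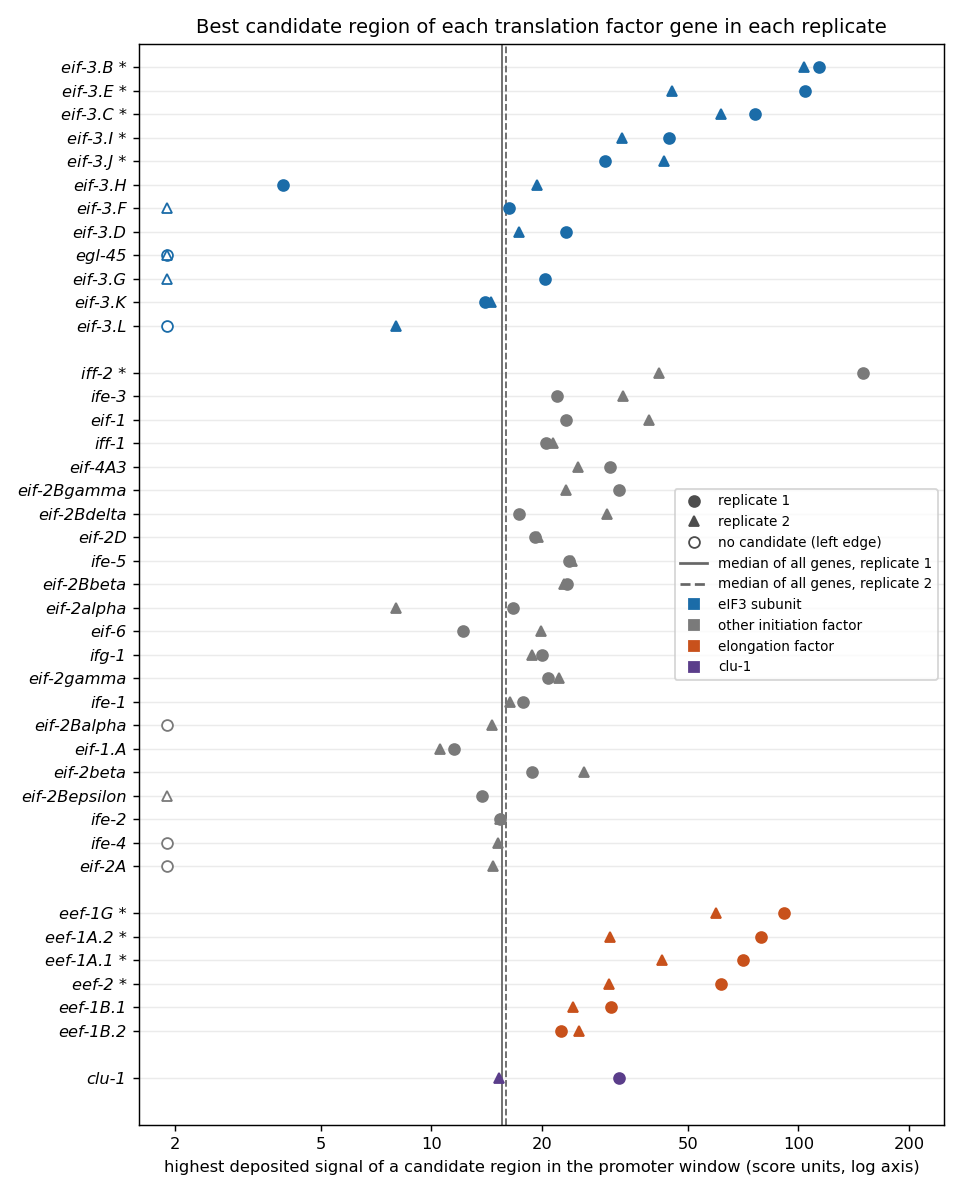
Highest signal (score units, log axis) of any candidate region with its summit in the promoter window, for each of the 41 genes in replicate 1 (circles) and replicate 2 (triangles); open symbols at the left edge are genes without a candidate, asterisks mark the 10 genes of the conservative list, and vertical lines are the medians of all protein-coding genes (15.59 and 15.94). The 5 eIF3 genes of the conservative list reach at least 29.68 in replicate 1 and 32.97 in replicate 2. The other 7 reach at most 23.24 and 19.37. All 6 elongation factor genes lie above both medians.

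Among the other initiation factors, the region at iff-2 was the exception. The genes iff-1 and iff-2 both encode eIF5A, the hypusine-bearing factor now known to act mainly in elongation and termination, so iff-2 is an initiation factor by name more than by role. The region at chrII:8561287-8561602 had its summit 78 bp upstream of the nearest 5′ end and ranked 130 of 728. Its signal was 191.7 in the series, 150.2 in replicate 1 and 41.68 in replicate 2. Replicate 1 gave it the highest score of any of the 41 genes and the −log10 IDR cap of 5, in a region only 69 bp wide, while in replicate 2 the −log10 IDR was 1.09. At iff-1, the copy known for its role in the germ line, the best candidate had a series signal of 51.02, with 20.57 in replicate 1 and 21.49 in replicate 2. So the eIF5A genes differed in the same direction in each replicate, by 150.2 against 20.57 and by 41.68 against 21.49, and the second of these gaps was much the smaller.

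Neither eIF2 nor eIF2B genes had a region. For the subunits of eIF2, the carrier of the initiator tRNA, the best series scores were 31.66 at eif-2alpha, 19.52 at eif-2beta and 26.8 at eif-2gamma. For those of eIF2B, its exchange factor, they were 22.79 at eif-2Balpha, 34.51 at eif-2Bbeta, 46.36 at eif-2Bgamma, 42.15 at eif-2Bdelta and 18.79 at eif-2Bepsilon. Among these 8 genes the −log10 IDR was highest at eif-2Bgamma, at 1.04 in the series list. The genes lay on both sides of the median of all genes, 27.84.

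The 5 genes for the cap-binding protein eIF4E were also without a region. The series score was 25.03 at ife-1, 13.62 at ife-2, 63.93 at ife-3, 12.44 at ife-4 and 40.69 at ife-5. The value at ife-3 was the highest among all 31 genes without a region, at 21.93 in replicate 1 and 33.33 in replicate 2, and its candidate summit lay 726 bp upstream. At ifg-1, which encodes the scaffold eIF4G, the series score was 27.84, equal to the median of all genes. The next highest score among genes without a region was at eif-1, for the start codon selection factor eIF1, with 58.61, followed by eef-1B.1 and iff-1, given above. After these came eif-4A3, for the helicase of the exon junction complex, with 47.97. At eif-1 the replicates gave 23.21 and 39.28, but from summits 393 bp downstream and 538 bp upstream of the 5′ end, which are different places. At eif-4A3 they gave 30.59 and 25.09. The gene eif-2A had no candidate in the series list or in replicate 1, and in replicate 2 a candidate of 14.72.

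The remaining genes of the rule had no region either. The series score was 22.42 at eif-1.A, for the eIF1A partner of eIF1, 41.56 at eif-2D, for a factor that can deliver tRNA without GTP, and 28.52 at eif-6, for a factor that keeps the ribosomal subunits apart. At clu-1, whose yeast homologue copurifies with eIF3, the series score was 46.98, with 32.46 in replicate 1 and 15.33 in replicate 2. The summits there lay 437 bp upstream in the series and 465 bp upstream in replicate 1. In replicate 2 the summit lay 851 bp upstream, which is a different place.

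Over the 31 genes without a conservative region, the median of the best series score was 27.84, beside 27.36 over the 19341 protein-coding genes without one. In replicate 1 the medians were 18.83 and 15.3, and in replicate 2 they were 18.79 and 15.65. The other 10 genes stood clear of them in the series scores, where the lowest of the 10 was 76.66 and the highest of the 31 was 63.93. In single replicates the groups overlapped: eif-3.J had 29.68 in replicate 1, below clu-1 at 32.46, and eef-2 had 30.5 in replicate 2, below eif-1 at 39.28. The list and the series scores come from the same regions, so their separation is given as a description. A further rule, chosen after these values were seen, asked for a best score in the top 10% of all protein-coding genes in both replicates. The same 10 of 41 genes (24.4%) met it, against 4.31% of all genes. It was also met by 25.9% of cytosolic ribosomal protein genes and 20.7% of the other translation genes counted below. The conservative list rests on the same 2 replicates, so this rule is no separate support for it.

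At 9 of the 10 genes the score was higher in replicate 1, and eif-3.J was the exception. The median ratio of replicate 1 to replicate 2 was 1.59, beside 1.18 over the 722 conservative regions that had a score in both, of which 67.2% were higher in replicate 1. The ratio was 3.6 at iff-2, above that of 99.7% of those regions, 2.57 at eef-1A.2, 2.3 at eif-3.E and 2.02 at eef-2, and it was 1.1 at eif-3.B and 1.23 at eif-3.C. The first 4 of these genes were in the replicate 1 list only, and the last 2 were in both lists. The scale of the score is not stated, and whether it is the same in both replicates was not tested. The median distance between the replicates' summits was 20 bp, the same as over all 722 regions, and ranged from 2 bp at eef-1G to 95 bp at eif-3.J. Each replicate's region was chosen by its overlap with the conservative region, so its summit could not lie far away.

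**Figure D3:**
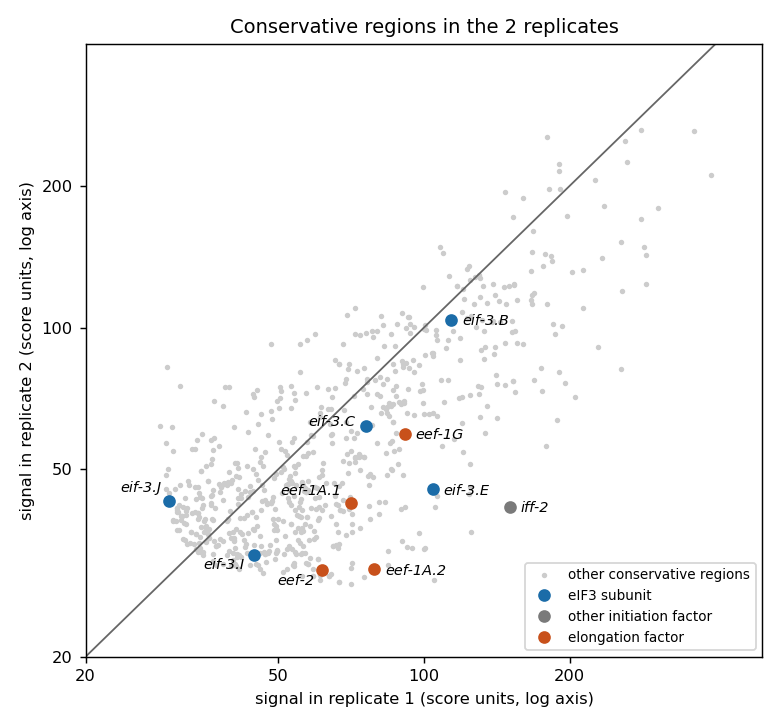
Signal of the 722 conservative regions in replicate 1 (x axis) and replicate 2 (y axis), in score units on log axes, with the regions at translation factor genes named and coloured by class; the line marks equal scores. All named genes except eif-3.J lie below the line, and iff-2, eef-1A.2 and eif-3.E lie farthest below it.

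All 10 summits lay upstream of the nearest annotated 5′ end of their gene, at a median of 228 bp. Over all 632 genes with a conservative region, 92.4% of summits were upstream, at a median of 231 bp, so the placement at translation factor genes was like that at other genes. The summits at eef-1G, eef-2 and iff-2 lay within 78 bp of a 5′ end, those at eif-3.E, eif-3.C, eif-3.I and eif-3.B lay between 208 and 248 bp upstream, and those at the eEF1A genes lay at 331 and 389 bp. The summit at eif-3.J, at 804 bp, stood alone.

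**Figure D4:**
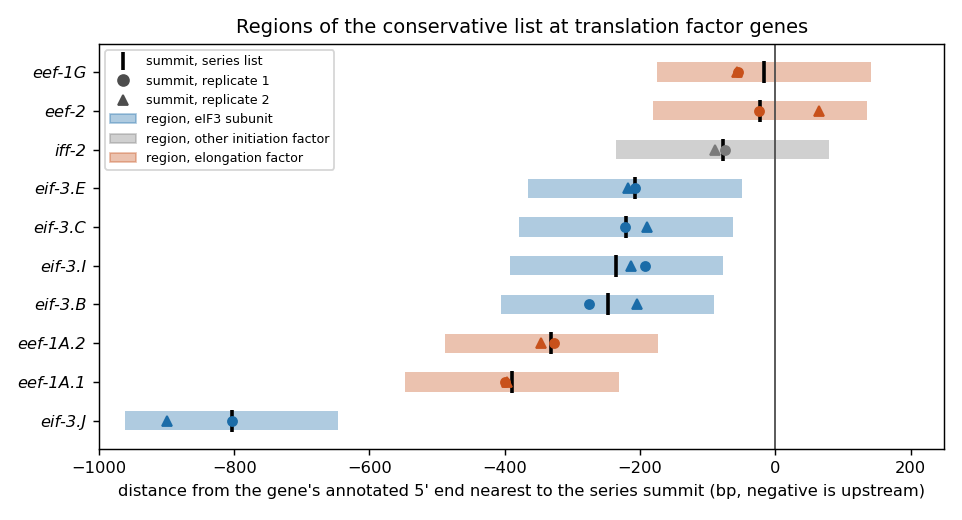
Position of the 10 conservative regions (bars, 316 bp wide) and of the summits in the series list and in each replicate, as distance in bp from the annotated 5′ end nearest to the series summit, with upstream to the left. The regions at eef-1G, eef-2 and iff-2 span a 5′ end, those at the other genes lie wholly upstream, and eif-3.J lies farthest away.

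Some of these regions belong as much to a neighbour. At 6 of the 10 genes (60%) the summit also lay in the promoter window of another protein-coding gene, in each case one transcribed the other way. Of the 477 conservative regions in any promoter window, 38.2% lay in more than 1. The region at eef-1A.1 was nearer to rfc-4, a clamp loader gene, whose 5′ end lay 152 bp from the summit against 389 bp for eef-1A.1. At eif-3.I the summit was 235 bp from its own 5′ end and 235 bp from that of abtm-1, a mitochondrial ABC transporter gene. The summits at eef-1G, eef-2, eif-3.E and iff-2 were nearer to the translation factor gene than to ctf-4, clsp-1, B0511.17 and F54C9.14, which lay 217, 242, 540 and 857 bp away. Which gene of such a pair a region relates to was not tested. The region at eef-1A.1 also overlapped the annotated microRNA gene cel-mir-5549, and that at eef-1A.2 overlapped the non-coding RNA gene R03G5.8.

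A divergent neighbour alone did not separate the genes. The next gene upstream ran the other way for 6 of the 10 genes with a region and for 17 of the 31 without (54.8%), while the shares were 70.9% for all genes with a region and 45.4% for all protein-coding genes. This feature was looked at after the regions were known. By chromosome, 5 of the 12 members on chromosome I had a region, 2 of 12 on chromosome II, 1 of 8 on chromosome III, 1 of 4 on chromosome V and 1 of 3 on chromosome X, and neither of the 2 on chromosome IV did. Over all genes the share with a region ran from 1.17% on chromosome X to 5.57% on chromosome III, so eef-1A.2 lies on the chromosome with the fewest.

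The sequences under the summits were compared over 200 bases each. Their GC content had a median of 41.8% over the 10 regions, beside 43% over all 728 regions and 33% over promoters of all genes taken at the same length, and it ran from 30.5% at eif-3.J to 56% at eef-1A.2. Each word was searched as written and as its reverse complement, and the match of a word is a description of the bases and not of a binding site. GAGAGA was in 2 of the 10, eef-1A.1 and eef-1A.2, beside 32.1% of all regions and 16.3% of all promoters. TTTCAG was in 3, at eef-1G, eif-3.C and eif-3.I, beside 21.7% of regions and 36.8% of promoters. TATAAA was in 3, at eef-1G, eif-3.B and eif-3.J, beside 14.1% and 30.4%. CCAAT was in eef-2 only, beside 29.1% and 32.2%, and TGACGT in eif-3.J only, beside 6.04% and 6.9%. CACGTG and GGGCGG were in none of the 10, beside 7.55% and 10.4% of regions.

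Words of 7 bases that several of the 10 regions share were then listed, a search made on these same regions. There were 17 such words in 4 or more of the 10, and 7 of them were more frequent in all regions than in all promoters. The 2 marked above are those of the 7 whose share of regions was highest relative to their share of promoters. GTACGCA was in eef-1A.2, eef-1G, eif-3.B and eif-3.I, beside 4.67% of all regions and 1.51% of promoters. GCAACGA was in eef-1A.1, eif-3.B, eif-3.C and eif-3.E, beside 4.4% and 1.83%. In the sequences printed above eif-3.B holds both words and iff-2 neither. Of the others among the 7, CAAACAC was in 5 of the 10 regions, beside 8.1% of all regions and 4.31% of promoters. GCAGGCA, also among the 7, was in iff-2, beside 1.65% and 1.26%. The members were the source of these words, so their counts are no evidence about them.

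Longer runs were shared by 2 pairs of elongation factor genes. Of the 45 pairs among the 10 regions, 2 (4.44%) had a run of 15 or more identical bases on either strand, beside 0.655% of the 264628 pairs among all 728 regions. A run of 16 bases, not marked above, occurred 4 times in the 6 nuclear chromosomes. It was in 2 of the 728 regions and in 1 of the 19973 promoters. Its pair was eef-1A.1 and eef-2. The other was eef-1A.2 and eef-1G, on chromosomes X and V, with the 15 bases aggggcacatacgca. This run occurred 5 times in the 6 nuclear chromosomes and in 3 of the 728 regions. It was in 1 of the 19973 promoters, taken here as the 200 bases before the outermost 5′ end. The run lies farther upstream than that at eef-1A.2 and crosses the outermost 5′ end at eef-1G. Neither copy was therefore within its own gene's promoter as counted here, and the shares of regions and promoters are not like for like. All 4 elongation factor genes with a region were in one of these pairs, while the longest run shared by any other pair of the 10 was 12 bases, between eif-3.B and eif-3.J. The runs were found after the regions were known, and whether they bear on binding was not tested.

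The rest of the translation machinery was counted in the same way for comparison. Of 81 genes for cytosolic ribosomal proteins, 18 (22.2%) had a conservative region, beside 24.4% of the translation factor genes. In the other lists the ribosomal protein share was the higher of these, at 29.6% against 19.5% in the second list, 28.4% against 19.5% in replicate 1 and 18.5% against 7.32% in replicate 2. Of 29 other translation genes, which include termination, ribosome rescue, mitochondrial elongation and signalling genes, 5 (17.2%) had one. These were drr-2, an RNA-binding protein gene related to eIF4H, with a signal of 284.5, gfm-1 with 173.4 and tufm-2 with 120.2, for mitochondrial elongation factors, abcf-2 with 133.2, for an ATPase of the ABC-F family, and larp-1 with 72.92, for an RNA-binding protein. The score at drr-2 ranked 41 of 728 and exceeded every score among the 41 genes.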

How the data were processed

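UNC-98::GFP ChIP-seq was measured in 2 biological replicates of one group, numbered as in the labels. Reads were aligned to ce11, and regions came from filtered alignments with a control file, per the description files deposited with the lists. The sources used here name neither aligner nor caller. There were 8 deposited lists, thresholded and ranked, for each replicate and for both together. The signal is the authors' score for a region, as deposited, at a scale not stated, and served to order and describe regions of one list. Ratios of replicate 1 to replicate 2 set scores of different lists side by side as a description. For candidate regions the authors deposited the −log10 of a global IDR, which reaches at most 5. In the 2 ranked lists of the series, 16 columns hold values of single replicates but name no sample, and these were not used. No read counts were used, so depth is unknown and intervals are not given.

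Summits were set against promoter windows of 19973 protein-coding genes of Ensembl release 115, whose build matches that of the files, with Python 3.11.15 and numpy 2.4.6. Figures were drawn with matplotlib 3.10.9. A replicate's score for a conservative region was taken from the region of its own ranked list that covers most of it. A gene's best score is the highest of any candidate summit in its window, and genes with no candidate counted as 0 in medians. The percentage of genes below a score is over all protein-coding genes. Promoters for sequence comparisons were the 200 bases before the outermost 5′ end of each gene. Runs and words were searched in RefSeq sequence. The window search was tested on simulated data and recovered all placed regions.

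The members and gene lists were chosen with earlier results of these data known. The genes named are all members with a region in a thresholded list, the 5 others with the highest candidate score, those without a candidate, and members of pairs and complexes; other members are given by their score. Of 30 symbols in the list of other translation genes, 29 matched the annotation. The alternatives tried were the second list, each replicate alone, an IDR of 0.001, a signal at or above the list median, 2 other windows, overlap of 1 bp in place of the summit, and the nearest gene only.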

Additional observations from a re-analysis of the deposited data

How the results depend on the processing

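The count of 10 translation factor genes with a region was 3 to 8 when one replicate was left out, 5 at an IDR of 0.001 and 6 among regions at or above the median signal. For eIF3 subunits the count of 5 was 3 in the second list of the series, 2 to 3 when one replicate was left out, 3 at an IDR of 0.001 and 3 at the median signal. For elongation factors the count of 4 was 1 to 4 when one replicate was left out, 1 at an IDR of 0.001 and 2 at the median signal. At an IDR of 0.001 the share of elongation factors was thus below that of eIF3 subunits, the reverse of the order in the whole conservative list. For other initiation factors the count of 1 was 0 to 1 when one replicate was left out. The share of all genes, 3.16%, was 1.79% to 2.89% when one replicate was left out, 1.45% at an IDR of 0.001 and 1.92% at the median signal. The low ends of these ranges came from replicate 2 alone, which has the shorter list. Under the stricter IDR, the median signal or a single replicate, the share of translation factor genes stayed above that of all genes counted the same way. The 500 to 100 bp window lost eif-3.J and assignment to the nearest gene lost eef-1A.1. That assignment kept eif-3.I on a tie, its summit being 235 bp from its own 5′ end and from that of abtm-1. The wider window and the overlap rule gave 10 genes each. The genes eef-1G, eif-3.B and eif-3.C were counted in all 10 settings, the main one included. No paired analysis was possible because there is only 1 group. The precision of each score cannot be given without read counts.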
